A study of Oryza sativa Japonica Group with 6 samples.

Results

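Grain size and weight in rice are set in large part by a few loci of known effect, and 6 of them were followed here in the developing endosperm, the starch-storing tissue inside the grain. They were chosen by gene ID from the rows of the expression table: GW2 (OS02G0244100), GS3 (OS03G0407400), GW5 (OS05G0187500), GS5 (OS05G0158500), GW8/SPL16 (OS08G0531600) and GL7 (OS07G0603300). All 6 had a row among the 93655 features of the table. RNA had been sequenced from endosperm of the japonica cultivar ZH11, taken 7 days after pollination, in 3 wild-type libraries (WT) and 3 libraries from a mutant labelled nf-yc11. Its name refers to NF-Y, a transcription factor of several subunits that binds CCAAT boxes in promoters. The labels give neither the mutated site nor whether libraries of a group came from separate plants, and the p-values below reflect library-to-library spread, which may be only technical.

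The final volume of a rice grain is limited by the spikelet hull, the lemma and palea that form before fertilisation and that the endosperm later fills. Most known grain size genes act on cell division or cell expansion in the young hull, through ubiquitin-dependent protein turnover, heterotrimeric G proteins, MAP kinases, brassinosteroid hormones and transcription factors. GW2 encodes a RING-type E3 ubiquitin ligase that restrains grain width and weight, and its loss is also known to speed grain filling. GS3 encodes a G protein gamma subunit that restrains grain length. GW5 encodes a calmodulin-binding protein that restrains grain width and inhibits the kinase GSK2 of the brassinosteroid pathway. GS5, a serine carboxypeptidase, promotes grain width. GW8/SPL16, an SBP-domain transcription factor, promotes width and is known to repress GL7, a LONGIFOLIA-type protein that promotes grain length.

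Values are FPKM, reads divided by the length of the gene and by the library's total, so that levels can be compared between genes. The totals behind the values were 14593215 to 21984785 reads per library, and whole reads could be recovered for each gene. In these libraries OS05G0304800, the ID paired with NF-YC11 from general knowledge, stood at 123.9 to 129.6 FPKM in WT and at 106.0 to 112.5 FPKM in nf-yc11. OS10G0191900, paired in the same way with NF-YC12, stood at 741 to 762 FPKM in WT and 191 to 194 FPKM in nf-yc11. Since mutated genes are often still transcribed, the altered gene cannot be read from these levels. Endosperm markers were abundant, 4 genes summing to 18780 to 19183 FPKM in WT and 16607 to 16808 FPKM in nf-yc11. Most of that sum is the glutelin gene GluA1, at a mean of 15725 FPKM in WT and 13400 FPKM in nf-yc11. The starch synthase gene GBSSI fell from 1063 to 608 FPKM, OS02G0528200 rose from 1619 to 2132 FPKM, and OS02G0252400 stood at 543 and 539 FPKM. Markers of other seed parts were present too. The 5 embryo or aleurone markers summed to 4556 to 4905 FPKM in WT and 5185 to 5593 FPKM in nf-yc11. That sum is mostly 2 genes, of which OS04G0546500 rose from a mean of 2025 to 2583 FPKM and the oleosin gene OLE18 did not pass the test, while the other 3 markers, RAB21, LEA3 and VP1, fell (limma). The 4 light-harvesting genes of green pericarp summed to 1990 to 2014 and 1693 to 1859 FPKM. The 6 floral organ markers summed to 135.0 to 137.5 FPKM in WT and 91.7 to 98.9 FPKM in nf-yc11. Most of that sum is MADS3, which fell from a mean of 38.0 to 24.1 FPKM, and MADS58, which fell from 68.6 to 43.6 FPKM. DL fell as well, and the other 3 did not pass the test (limma). None of these 19 markers was at 0. Fewer cells of a type and less RNA per cell cannot be told apart in such bulk samples.

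The 6 genes differed in level by several orders of magnitude, and only GW2 was abundant. GW2 averaged 236 FPKM over the 6 libraries, which placed it at rank 434 of the 30342 RAP gene IDs with any reads. GL7 followed at 3.25 FPKM, GS5 at 0.982 FPKM and GS3 at 0.553 FPKM. GW8/SPL16 averaged 0.0912 FPKM and GW5 0.0637 FPKM. A mean of at least 1 FPKM over the 6 libraries was taken as expressed. GW2 and GL7 passed and the other 4 did not, against 51.7% of RAP gene IDs that passed. GS5 averaged 1.17 FPKM in WT and 0.793 FPKM in nf-yc11, so in WT alone it was over this minimum. At a minimum of 0.5 FPKM GS5 and GS3 passed as well, making 4 of 6, and at 5 FPKM GW2 alone did.

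The order of the levels was clear at the top and blurred below. GW2 was above GL7 in 6 of 6 libraries, with means 72.6-fold apart, and its lowest library (214 FPKM) lay far above the highest of GL7 (3.71 FPKM). GL7 was above GS5 in 6 of 6 libraries, 3.31-fold by the means. GS5 was above GS3 in 5 of 6 libraries, 1.77-fold by the means, but their ranges over the 6 libraries overlapped. In WT the ranges were apart (0.865 to 1.52 FPKM for GS5, 0.290 to 0.674 FPKM for GS3), and in nf-yc11 they overlapped. The difference between these genes was not tested. GS3 was above GW8/SPL16 in 6 of 6 libraries. GW8/SPL16 was above GW5 in the 3 WT libraries and below it in the 3 nf-yc11 libraries, with overlapping ranges and at most 9 reads in any library, so they were not ordered. GW2 made up 97.2% to 98.4% of the summed FPKM of the 6 genes in every library.

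**Figure D1:**
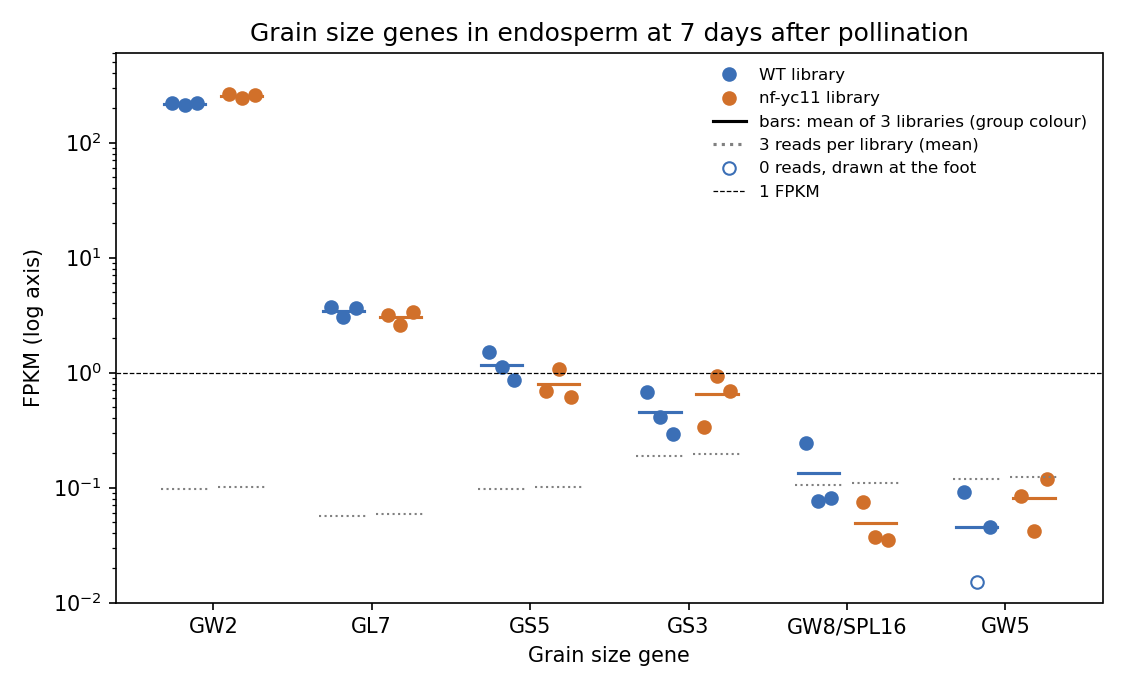
FPKM of the 6 grain size genes in each library on a log axis (blue, WT; orange, nf-yc11), with the mean of each group as a bar, the level of 3 reads as a dotted line and 1 FPKM as a dashed line. GW2 stands between 214 and 262 FPKM and GL7 between 2.57 and 3.71 FPKM. GW8/SPL16 and GW5 lie around or below the level of 3 reads, except GW8/SPL16 in WT replicate 1 (0.243 FPKM, 9 reads).

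GW2, the ubiquitin ligase gene, was higher in the mutant libraries. It stood at 219, 214 and 221 FPKM in WT replicates 1 to 3, and at 262, 244 and 257 FPKM in nf-yc11 replicates 1 to 3. Every nf-yc11 library lay above every WT library. These values rest on 5863 to 8744 reads per library over a gene length of 1820 bases. The means were 218 ± 3.69 FPKM (SD, n = 3) and 254 ± 9.04 FPKM, a rise of 1.17-fold (log2 change of FPKM + 1 of 0.22 ± 0.03 SE, 95% interval 0.14 to 0.31, adjusted p = 0.00183, limma). Of 22093 tested features (mean of 1 FPKM or more), 49.1% were called changed at an adjusted p under 0.05 in the same fit, 29.8% higher and 19.3% lower, and 59.7% had groups that did not overlap. A call was therefore common in these data, and 43.8% of tested features had a smaller absolute change than GW2.

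The size of the GW2 rise depended on how the libraries were scaled to each other. The median log2 change of all tested features was 0.06 as deposited. With size factors, which bring that median near 0, the log2 change of GW2 was 0.15 (adjusted p = 0.00779, limma), and with quantile normalization it was 0.08 and no longer passed (adjusted p = 0.0935, limma). Leaving out any 1 library gave log2 changes of 0.20 to 0.25, with adjusted p from 0.00123 to 0.01 (limma). The exact permutation test of GW2 alone gave p = 0.1, the smallest that 3 against 3 libraries allow. Features with neighbouring ID numbers did not share its level: OS02G0244000 stood at 0.110 to 0.386 FPKM and OS02G0244300 at 8.61 to 11.01 FPKM over the 6 libraries. The sources used here do not say whether reads were counted by strand, so reads of an overlapping transcript could not be separated from those of GW2.

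GS3, the G protein gamma subunit gene, was near the limit of detection in both genotypes. It had 14, 6 and 4 reads in WT replicates 1 to 3 (0.674, 0.407 and 0.290 FPKM) and 5, 14 and 11 reads in nf-yc11 replicates 1 to 3 (0.336, 0.929 and 0.685 FPKM). The groups overlapped, and each held libraries at both ends of the range. The means were 0.457 ± 0.197 and 0.650 ± 0.298 FPKM (SD, n = 3; exact permutation p = 0.4, two-sided). Pooled over the libraries of a group, the mutant to WT ratio of reads per total was 1.34, with a 95% exact interval of 0.757 to 2.40 that covers counting error only. A difference of that size was not detectable at this depth.

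The beta and alpha subunit partners of GS3 were present at higher levels. Gamma subunits work as a dimer with the beta subunit, RGB1, which stood at 39.3 ± 1.21 FPKM in WT and 37.8 ± 2.17 FPKM in nf-yc11 (SD, n = 3). The alpha subunit gene RGA1 stood at 12.7 ± 0.315 and 13.8 ± 1.43 FPKM. Another gamma subunit gene, RGG1, stood at 1.98 ± 0.463 and 2.40 ± 0.0725 FPKM. Not every gamma subunit gene was above GS3. By IDs paired from general knowledge, OS09G0441900 and OS08G0456600 averaged 0.320 and 0.343 FPKM over the 6 libraries, and OS02G0137800 averaged 5.01 FPKM. None of RGB1, RGA1 and RGG1 passed the test (adjusted p = 0.41, 0.287 and 0.255, limma), although RGB1 was called lower under quantile normalization (log2 change −0.17, adjusted p = 0.0365). TUD1, a U-box ubiquitin ligase that acts with the alpha subunit, fell from 12.5 ± 0.0700 to 10.3 ± 1.11 FPKM (adjusted p = 0.0291, limma). That call ended at the margin with no filter on low values (adjusted p = 0.05), and without any 1 library other than nf-yc11 replicate 1 (0.0583 to 0.0762).

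GW5, the calmodulin-binding protein gene, was barely detected. It had 3, 0 and 1 reads in WT replicates 1 to 3 and 2, 1 and 3 reads in nf-yc11 replicates 1 to 3, or 10 reads in all. Only 2 of 6 libraries reached 3 reads, which for its length of 1495 bases corresponds to 0.0913 to 0.138 FPKM. The pooled mutant to WT ratio was 1.61 with a 95% exact interval of 0.381 to 7.75 for counting error only, and a change within it was not detectable at this depth. WT replicate 1 held 3 of the 4 WT reads, and without it the ratio of mean FPKM went from 1.79 to 3.56. GSK2, the kinase that GW5 is known to inhibit, was low as well, at 0.601 ± 0.0751 FPKM in WT and 0.996 ± 0.221 FPKM in nf-yc11 (SD, n = 3). Its groups did not overlap, but it lay under the 1 FPKM filter and did not pass in the fit with no filter (adjusted p = 0.0802, limma), in which 29.1% of 36189 features were called. GSK2 was singled out after its values were seen.

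GS5, the carboxypeptidase gene, was detected at a low level in every library. It stood at 1.52, 1.13 and 0.865 FPKM in WT replicates 1 to 3 (61, 32 and 23 reads) and at 0.698, 1.07 and 0.614 FPKM in nf-yc11 replicates 1 to 3 (20, 31 and 19 reads). The groups overlapped, with nf-yc11 replicate 2 above WT replicate 3. The means were 1.17 ± 0.331 and 0.793 ± 0.241 FPKM (SD, n = 3), and the mean over all 6 libraries fell just under the filter. The pooled mutant to WT ratio of reads was 0.647, with a 95% exact interval of 0.474 to 0.878 for counting error alone. That interval leaves out the spread between libraries. With it, GS5 did not pass in the fit with no filter (log2 change −0.27, 95% interval −0.65 to 0.11, adjusted p = 0.258, limma) nor with voom on the recovered reads (−0.62, adjusted p = 0.0797). WT replicate 1 held 61 of the 116 WT reads, and without it the WT mean was 0.995 FPKM.

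GW8/SPL16 and GL7 form a known pair, a transcription factor and a gene that it represses. GW8/SPL16 was at the edge of detection, with 9, 2 and 2 reads in WT replicates 1 to 3 and 2, 1 and 1 reads in nf-yc11 replicates 1 to 3. Only WT replicate 1 reached 3 reads. In FPKM the groups just failed to overlap, the lowest WT library at 0.0759 and the highest nf-yc11 library at 0.0753, a gap between 2 libraries with 2 reads each. The pooled mutant to WT ratio was 0.330, with a 95% exact interval of 0.0784 to 1.07 for counting error only. Without WT replicate 1 each group held 4 reads, and the WT mean was 1.6-fold that of nf-yc11 in place of 2.71-fold. GW8/SPL16 did not pass in the fit with no filter (adjusted p = 0.315, limma).

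GL7, the gene for the LONGIFOLIA-type protein, was expressed at a low but measurable level. It stood at 3.71, 3.05 and 3.61 FPKM in WT replicates 1 to 3 (255, 149 and 165 reads) and at 3.19, 2.57 and 3.37 FPKM in nf-yc11 replicates 1 to 3 (157, 128 and 179 reads). The groups overlapped, WT replicate 2 lying below 2 of the nf-yc11 libraries. The means were 3.46 ± 0.355 and 3.04 ± 0.422 FPKM (SD, n = 3). GL7 did not pass the test (log2 change −0.14 ± 0.11 SE, 95% interval −0.41 to 0.12, adjusted p = 0.325, limma). Adjusted p stayed between 0.173 and 0.697 in the alternatives and with 1 library left out.

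**Figure D2:**
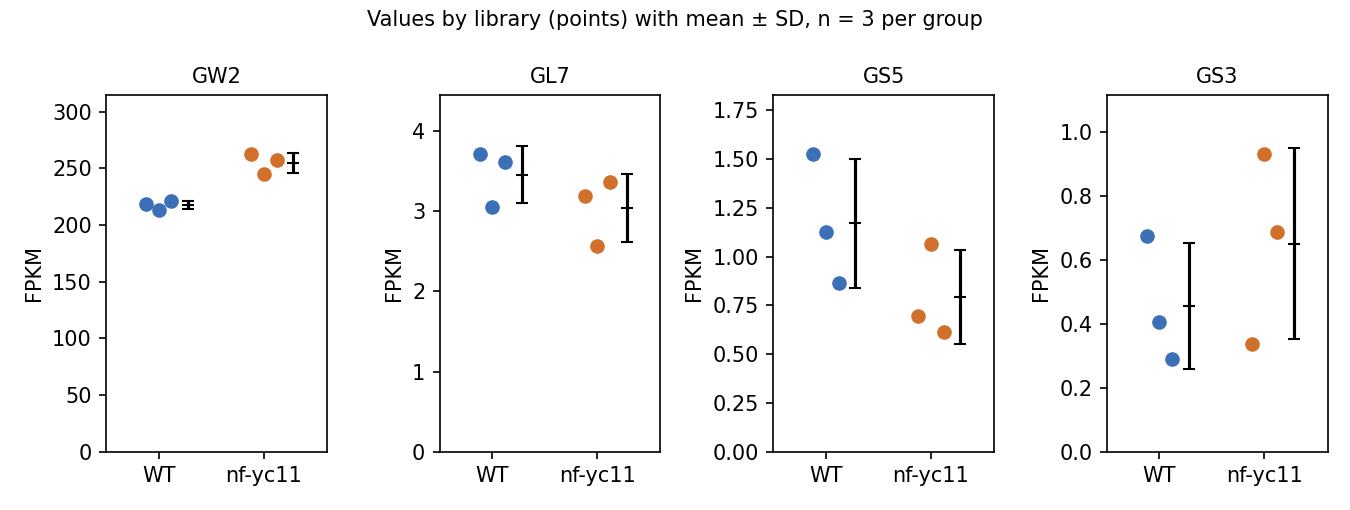
FPKM by library (points) for the 4 genes with at least 3 reads in every library, with the mean ± SD of 3 libraries beside them and axes from 0. GW2 is separated between the groups (214 to 221 against 244 to 262 FPKM), whereas the points of GL7, GS5 and GS3 overlap between WT and nf-yc11.

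The spread between libraries of a group was smallest for GW2 and larger for the genes with fewer reads. For GW2 the coefficient of variation was 1.7% in WT and 3.55% in nf-yc11, where counting alone would give about 1.2% and 1.15%. For GL7 it was 10.3% and 13.9%, against 7.26% and 8.04% from counting. GS5 varied by 28.3% and 30.4%, against 16.1% and 20.7%. GS3 varied by 43.1% and 45.8%, against 35.4% and 31.6%. The part of counting in these spreads was not tested. GW8/SPL16 varied by 71.1% in WT and 46.3% in nf-yc11, against 48.0% and 86.6%, and GW5 by 99.9% and 46.8%, against 86.6% and 70.7%, values that rest on 4 to 13 reads a group. WT replicate 1, the deepest library, had the highest FPKM of its group for 5 of the 6 genes, the exception being GW2. For GW5 and GW8/SPL16 that rests on 3 and 9 reads. The nf-yc11 libraries were highest for 2 genes each. How often each library was highest over all features was not counted. Depth divides out of FPKM, and its part in this pattern was not tested.

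**Figure D3:**
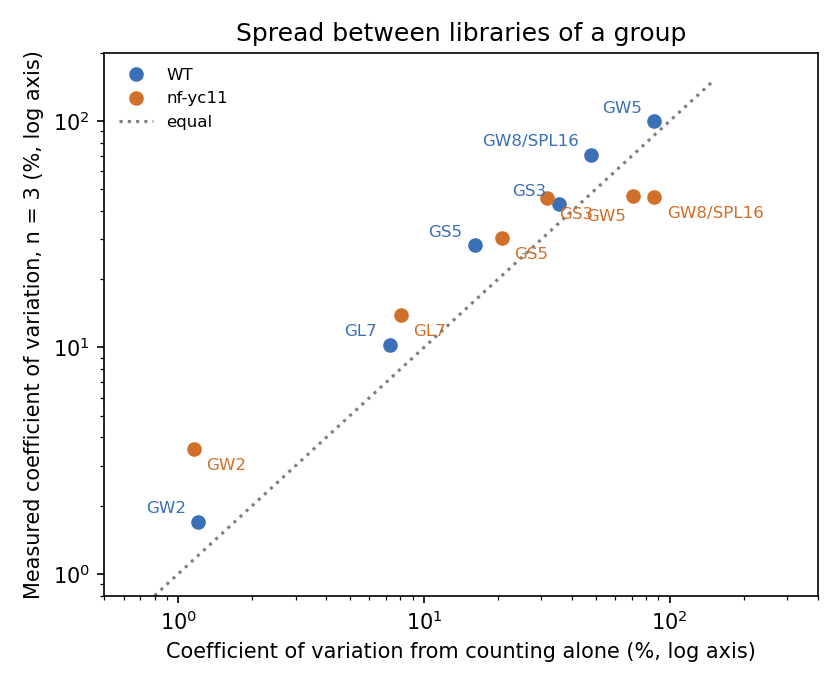
Measured coefficient of variation over the 3 libraries of a group against the value expected from counting reads alone, both in percent on log axes (blue, WT; orange, nf-yc11; dotted line, equality). GW2 lies lowest (1.7% and 3.55%), and the genes with few reads lie higher, with GW8/SPL16 and GW5 of nf-yc11 below the line.

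Other grain size genes gave the setting for these values. A list of 56 further genes from the same pathways was drawn up by ID, of which 55 had a row. Of these, 41 had a mean of at least 1 FPKM, 14 did not, and 1 was more abundant than GW2. Among the 41, 13 changed (31.7%, against 49.1% of all tested features), 5 higher and 8 lower in nf-yc11. Over all tested features 29.8% were higher and 19.3% lower. The median log2 change of the 41 was −0.02 beside 0.06 for all features. The table holds no gene names, and 24 of the 55 could be placed by symbol in a RefSeq gene table, so names are given for these only. Of the 24, 19 were tested, and 1 rose, 5 fell and 13 did not pass. The counts varied with the scaling. With size factors 16 of the 41 genes were called (39.0%, 5 higher, 11 lower), beside 10729 of all 22093 features (5434 higher, 5295 lower). With quantile normalization 18 of the 41 were called (43.9%, 5 higher, 13 lower), beside 10690 of 22093 (5427 higher, 5263 lower). Without WT replicate 1, WT replicate 3 or nf-yc11 replicate 3 the count was 8, and the calls over all features were then 9212, 9301 and 9155 in place of 10842.

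The gene more abundant than GW2 was SRS5, an alpha-tubulin gene whose mutation shortens the grain. It rose from 685 ± 9.50 to 978 ± 13.3 FPKM (SD, n = 3), or 1.43-fold, with WT libraries at 682, 677 and 696 FPKM and nf-yc11 libraries at 994, 970.2 and 970.9 FPKM (log2 change 0.51 ± 0.02 SE, adjusted p = 1.52e-05, limma). SRS5 was also the list gene whose pattern over the 6 libraries was most like that of GW2 (Pearson r = 0.971 of log2 values among 20 candidates), followed by the floral MADS-box gene MADS1 (r = 0.726). For GL7 the most like were TUD1 (r = 0.737) and BZR1 (r = 0.642). Each r spans 6 libraries in 2 groups, and 2 genes that both differ between the groups are alike by that alone.

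Of 13 tested brassinosteroid genes, 1 rose and 5 fell, where 29.8% of all tested features rose and 19.3% fell. Only the share called in either direction (46.2%) was near that of all tested features (49.1%). The split by direction was not tested. Of the 13, 6 could be named, of which 3 fell. BRI1, the brassinosteroid receptor gene, fell 1.4-fold from 17.4 ± 0.644 to 12.4 ± 0.630 FPKM (log2 change −0.46 ± 0.06 SE, adjusted p = 0.000773, limma). Its WT libraries stood at 17.7, 17.9 and 16.7 FPKM and its nf-yc11 libraries at 12.96, 11.74 and 12.61 FPKM, with no overlap. BZR1, a transcription factor of the hormone response, fell from 17.5 ± 0.838 to 14.4 ± 1.25 FPKM (adjusted p = 0.0204, limma). SMOS1, an AP2-type factor, fell from 4.55 ± 0.198 to 3.79 ± 0.0242 FPKM (adjusted p = 0.0404, limma). The call of BZR1 ended without WT replicate 1, WT replicate 2 or nf-yc11 replicate 3 (adjusted p 0.0503 to 0.0675), and that of SMOS1 without any 1 of the 6 libraries (0.0687 to 0.115). SMOS1 also lost its call with no filter, with the replicate block and with voom (0.069, 0.0863 and 0.11). The most abundant named gene of the group, the brassinosteroid C-6 oxidase gene BRD1, stood at 24.7 ± 0.841 and 22.7 ± 1.96 FPKM. It missed the threshold (adjusted p = 0.19, limma), but was called lower under quantile normalization (0.044) and without nf-yc11 replicate 2 (0.0406).

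The transcription group had 2 of 10 tested genes called, 1 in each direction, against 49.1% of all tested features. PGL2, an atypical helix-loop-helix protein that lengthens the grain when overexpressed, fell 1.82-fold from 30.2 ± 0.517 to 16.5 ± 1.40 FPKM (log2 change −0.83 ± 0.06 SE, adjusted p = 0.000106, limma). Its WT libraries stood at 30.2, 29.6 and 30.6 FPKM and its nf-yc11 libraries at 15.3, 16.3 and 18.1 FPKM. The related gene PGL1 lay under the filter and is named here after its values were seen. It had 9, 7 and 11 reads in WT and 28, 25 and 26 reads in nf-yc11, 0.378 ± 0.133 and 1.14 ± 0.0945 FPKM, and was called higher in the fit with no filter (log2 change 0.64, adjusted p = 0.00507, limma). SPL14, an SBP-domain factor of the same family as GW8/SPL16, stood at 6.76 ± 0.575 and 6.43 ± 0.213 FPKM, without passing (adjusted p = 0.54, limma).

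Among the other groups, 1 of 4 tested MAP kinase genes, 1 of 3 ubiquitin genes, 1 of 5 G protein genes and 2 of 6 genes of auxin, cell division and other roles were called, beside the same 49.1% over all features. MAPK6, a kinase whose loss reduces grain size, stood at 27.7 ± 0.874 and 25.4 ± 0.844 FPKM and missed the threshold (adjusted p = 0.0595, limma). It was called lower with size factors (log2 change −0.20, adjusted p = 0.00988) and with quantile normalization (−0.21, 0.00913). SRS3, a kinesin gene, stood at 34.8 ± 2.71 and 34.6 ± 0.344 FPKM, with no call (adjusted p = 0.943, limma). FZP, an ERF-type factor of spikelet formation, was at 0 reads in all 6 libraries. Of the marker genes, 2 of 4 endosperm, 3 of 6 floral organ, 3 of 4 green pericarp and 3 of 5 embryo or aleurone markers fell in nf-yc11, where 19.3% of all tested features fell. In addition 1 endosperm marker and 1 embryo or aleurone marker rose. Their part in the values of the grain size genes was not tested.

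**Figure D4:**
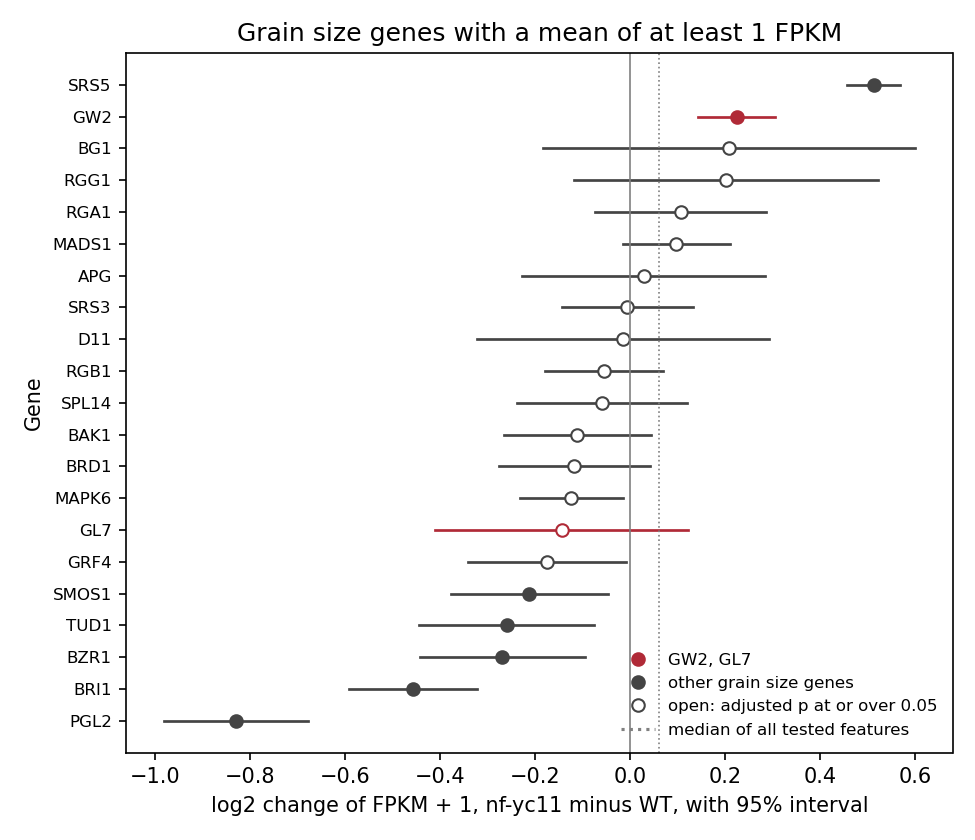
Log2 change of FPKM + 1 between nf-yc11 and WT with its 95% interval for GW2 and GL7 (red) and the 19 named grain size genes with a mean of at least 1 FPKM (grey); filled points passed an adjusted p of 0.05 (limma), and the dotted line is the median of all tested features. GW2 and SRS5 are the filled points on the positive side, PGL2 and BRI1 lie farthest on the negative side, and the interval of GL7 spans 0.

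**Figure D5:**
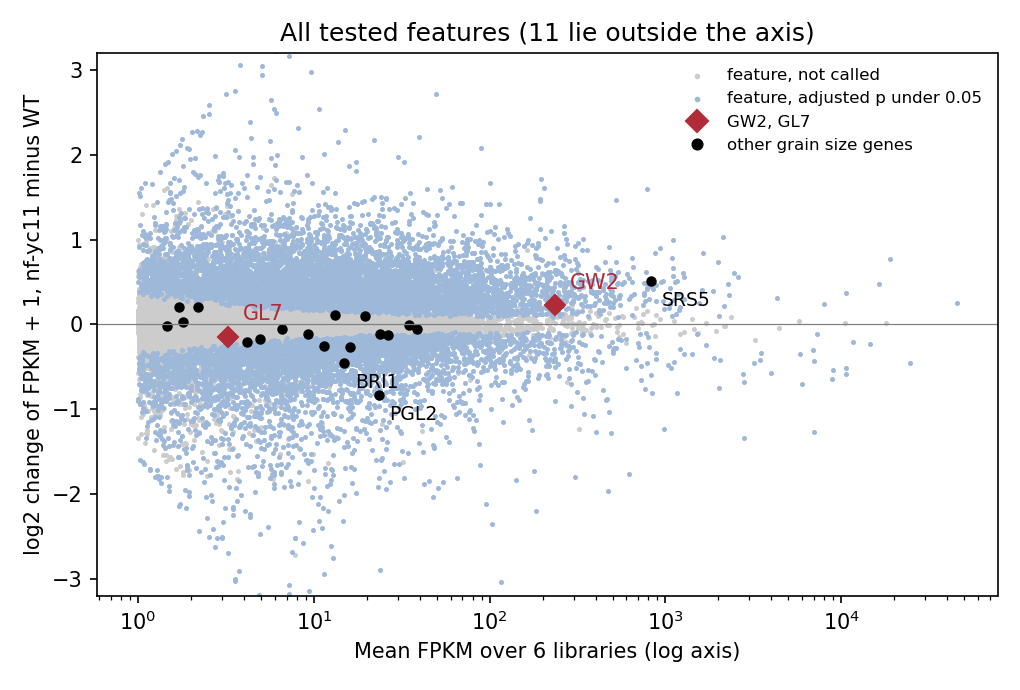
Log2 change between nf-yc11 and WT against mean FPKM (log axis) for all tested features (blue, adjusted p under 0.05; grey, not called), with GW2 and GL7 as red diamonds and the named grain size genes as black points. GW2 lies far to the right at 236 FPKM with a change of 0.22, inside the cloud of called features.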

How the data were processed

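The authors deposited FPKM values for 6 libraries in 1 table. Per the submitters' processing notes CASAVA 1.7, HISAT2 2.0.5 and DESeq were used, for steps that the notes do not assign. Which counter, genome build and annotation were used is not given in the sources used here. Reads were recovered by searching gene lengths that make all 6 values whole (within 0.0001), which succeeded for 36189 of 36189 features above 0, at the smallest such length. The exact intervals of pooled read ratios and the floors of 3 reads leave out the spread between libraries, whereas the limma intervals include it.

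limma 3.58.1 (R 4.3.3) with a variance trend was fitted to log2(FPKM + 1) of features averaging 1 FPKM or more, with Benjamini-Hochberg adjustment over all of them; this scale understates changes of low genes. The procedure was also run on simulated data. These had a small fixed spread beyond counting and far fewer changed features than were called here, so that run does not show how the fit performs on the real libraries. Python 3.11.15, scipy 1.17.1 and matplotlib 3.10.9 were also used.

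Members and lists were chosen with earlier results of these data known. Gene IDs were paired with symbols from general knowledge. By symbol, chromosome and order, GW2 and SPL16 but not GS3, GW5, GS5 and GL7 were found in the RefSeq table of assembly ASM3414082v1. Beside the members, the genes named were, among those placed, the most abundant of each group, up to 8 with the smallest adjusted p, up to 4 with the largest change, and those most like a member; the G protein subunits, GSK2, PGL1, SPL14, SRS3 and FZP were named outside this rule, after their values were seen. Promoter and protein sequences were not used here.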

Additional observations from a re-analysis of the deposited data

How the results depend on the processing

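Of the 6 members only GW2 and GL7 passed the filter and were tested in the main fit. Of these GW2 was called, as were 49.1% of all tested features. The log2 change of GW2 was 0.224 in the main fit. Settings that alter only the features tested, the variance trend or the replicate block leave it there by construction. Where it could move it stayed positive: 0.225 with a pseudocount of 0.1, 0.226 with voom, 0.15 with size factors and 0.081 with quantile normalization. With any 1 library left out it was 0.20 to 0.25. The call ended with quantile normalization (log2 change 0.081, adjusted p = 0.0935, limma), and the cause was not tested. With the replicate block GW2 had an adjusted p of 0.00446 and GL7 0.235, 9948 features were called, and 10 other grain size genes. Deviations of same-numbered libraries correlated at −0.05 to 0.004, so the numbers were not taken to pair the libraries. Called features depended on how many were tested. They were 8320 of 13548 at a minimum of 5 FPKM, 10525 of 36189 with no filter and 11696 of 22093 with voom. The voom fit over features with at least 10 reads called 12657 of 28875. With 1 library left out 9093 to 9669 of 22093 were called. The 13 other grain size genes called became 6 when only genes placed in the gene table were counted, by construction, and 8 to 10 with 1 library left out. Differences of low members moved with the scale: a pseudocount of 0.1 gave log2 differences of 0.40 for GS3, 0.35 for GW5, −0.51 for GS5 and −0.58 for GW8/SPL16, and voom over features with at least 10 reads gave 0.38, 0.78, −0.62 and −1.16, none called (adjusted p 0.556, 0.495, 0.0797 and 0.227). With 1 library left out the log2 differences were 0.05 to 0.32 for GS3, 0.02 to 0.08 for GW5, −0.38 to −0.16 for GS5, −0.14 to −0.04 for GW8/SPL16 and −0.21 to −0.06 for GL7. The count of members called expressed was 4 at 0.5 FPKM and 1 at 5 FPKM, by construction. GL7 has no value with at least 5 FPKM. The voom fit with 10 reads and the count of placed genes were chosen after seeing the data.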
